A study of Mus musculus with 27 samples.

Results

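Mouse induced pluripotent stem cells made with 3 reprogramming factors were compared before and after 5 days of differentiation, in 6 of the 27 arrays of the series. The members were chosen by their titles: 3 arrays of the undifferentiated H9 line (day 0) and 3 arrays of the same line differentiated for 5 days, each a separate biological replicate. The line, called 3F here, is a mouse line in spite of its name, and the labels name neither the 3 factors nor the reprogrammed cell. Day 0 cells were grown with leukemia inhibitory factor (LIF), a cytokine that sustains mouse pluripotent cells, on feeder cells whose division had been stopped with mitomycin. Day 5 cells were embryoid bodies, floating aggregates that had differentiated spontaneously in a serum medium without LIF. The labels do not say whether feeder cells were removed before RNA was taken, and each kind of cell in the series was a single line. The other lines, used below for comparison and handled alike, were R1, an embryonic stem cell line, and 19BL, an induced pluripotent line made with 4 factors (4F). The series title concerns how well such lines can form heart cells.

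Pluripotent cells are held undifferentiated by a network of transcription factors around Oct4, Sox2 and Nanog, with LIF signalling and the Klf factors supporting its naive state. When they aggregate without LIF, they pass through a state resembling the epiblast and then through one resembling the primitive streak, the structure through which Nodal, BMP, Wnt and FGF signals send cells into mesoderm and endoderm. Mesoderm that has expressed Mesp1 and the VEGF receptor gene Kdr gives rise to the heart, blood vessels and blood.

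Values are log2 RMA signals as deposited, for 18193 genes with 1 probe set each. A level is comparable between arrays for a gene but not between genes, since probes differ. A change is the day 5 mean minus the day 0 mean, followed by its standard error in limma. That error rests on the spread between replicates in all 9 groups of the series, not in 3F alone. A gene is said to have risen or fallen only at a Benjamini-Hochberg adjusted p under 0.05 and at least 2-fold. The 6 arrays were alike in quality: the 3' minus 5' signal of the Actb and Gapdh controls, which grows as RNA is broken down, was 1.05 to 1.17 at day 0 and 1.01 to 1.17 at day 5. The difference between replicates had an SD of 0.20 to 0.28 over all probe sets of the array. The labels fit the markers of the cells. The mean level of 5 pluripotent cell markers was 12.02 to 12.25 at day 0 and 8.72 to 9.44 at day 5, and that of 4 early mesoderm markers was 7.44 to 7.59 and 10.66 to 11.82. The mean level of 8 feeder fibroblast markers was 11.13 to 11.96 at day 0 and 6.90 to 7.84 at day 5. The mean of these markers was thus higher in every day 0 array than in any day 5 array, and in bulk RNA fewer cells of a type and less RNA per cell cannot be told apart. Among the comparison arrays, day 5 replicate 3 of 4F stood apart from its group: it lay at -19.3 on the first principal component against -43.5 and -44.2. Day 5 replicate 3 of R1 lay at 29.2 against -1.5 and 8.5, and its 3' minus 5' signal was 1.28 against 1.78 and 1.93.

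Differentiation for 5 days changed 2263 genes in 3F (12.4% of those tested), of which 917 rose (5.04%) and 1346 fell (7.4%). At least 16-fold changes were made by 30 genes that rose and 87 that fell. The 3 arrays of each day did not overlap at 10311 genes (56.7%), higher at day 5 for 26.1% and lower for 30.6%, and the median change over all genes was -0.0039. Of the 2263 genes that rose or fell, 2262 did not overlap, so that a lack of overlap adds no support to a call.

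Among the largest movers, 4 genes are shown by the 250 bases before their start, from RefSeq (GRCm38.p6). They had the largest rises and falls among the named genes that the promoter reference holds, with a chromosome passed over by rule. Aplnr and Sox17, which rose by more than Cxcr4, are thus not among them. Capitals mark matches to short motifs searched on both strands.
Asb4, chr6:5383136-5383385, plus strand: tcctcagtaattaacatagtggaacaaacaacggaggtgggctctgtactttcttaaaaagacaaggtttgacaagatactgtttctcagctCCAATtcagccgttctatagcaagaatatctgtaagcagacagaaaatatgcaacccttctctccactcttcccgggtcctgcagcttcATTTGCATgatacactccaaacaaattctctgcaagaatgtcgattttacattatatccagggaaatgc
Cxcr4, chr1:128592300-128592549, minus strand: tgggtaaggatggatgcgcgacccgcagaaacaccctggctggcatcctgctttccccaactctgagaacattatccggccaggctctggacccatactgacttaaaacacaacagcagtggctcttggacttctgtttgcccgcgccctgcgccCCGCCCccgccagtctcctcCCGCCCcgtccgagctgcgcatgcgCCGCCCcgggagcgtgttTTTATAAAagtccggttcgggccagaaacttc
Tm4sf1, chr3:57301989-57302238, minus strand: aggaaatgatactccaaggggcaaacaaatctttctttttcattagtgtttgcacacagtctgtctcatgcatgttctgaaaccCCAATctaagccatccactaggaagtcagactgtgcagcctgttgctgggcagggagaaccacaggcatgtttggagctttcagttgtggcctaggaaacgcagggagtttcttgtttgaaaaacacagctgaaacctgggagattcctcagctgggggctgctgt
Anxa1, chr19:20390672-20390921, minus strand: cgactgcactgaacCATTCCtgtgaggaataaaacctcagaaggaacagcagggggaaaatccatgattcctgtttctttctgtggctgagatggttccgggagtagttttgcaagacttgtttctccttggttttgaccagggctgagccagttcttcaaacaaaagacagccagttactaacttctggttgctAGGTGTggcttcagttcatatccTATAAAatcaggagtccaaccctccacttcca
Asb4 and Cxcr4 rose and Tm4sf1 and Anxa1 fell. The Asb4 window holds a CCAAT box (CCAAT) and, on the other strand, an octamer (ATGCAAAT), the Cxcr4 window 3 GC boxes (GGGCGG, on the other strand) and a TATA box (TATAAA) that matches on both strands with overlap, the Tm4sf1 window a CCAAT box, and the Anxa1 window a TEAD motif (GGAATG, on the other strand), a T-box motif (AGGTGT) and a TATA box. Of 14452 promoters of tested genes, 35.7% held a CCAAT box, 1.38% an octamer, 49.9% a GC box, 9.02% a TATA box, 11.4% the TEAD letters and 11.0% the T-box letters. The Cxcr4 window has 19 CpG pairs (0.838 of the number its base content would give), the Asb4 window 4 (0.394), the Anxa1 window 2 (0.151) and the Tm4sf1 window 1 (0.0699). A match describes the letters and no binding.

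The largest rise was that of Aplnr, the gene of the apelin receptor, which marks early mesoderm and vessel precursors. Its signal was 4.89, 4.37 and 4.53 at day 0 and 12.52, 12.41 and 12.36 at day 5. The 3 day 5 arrays lay close together. The change was 228-fold (7.84 ± 1.0, adjusted p = 2.61e-06). Asb4, which encodes a subunit that directs ubiquitin ligases, was at 4.5, 5.31 and 5.15 at day 0 and 11.63, 10.79 and 11.21 at day 5 (6.23 ± 0.62, adjusted p = 9.73e-08). Sox17, a transcription factor of definitive endoderm and of blood-forming endothelium, was at 4.4, 4.83 and 4.56 at day 0 and 11.38, 10.68 and 10.29 at day 5 (6.19 ± 0.43, adjusted p = 5.37e-10). Cxcr4, the receptor of the chemokine Cxcl12 in migrating mesoderm and endoderm, was at 5.21, 5.37 and 5.32 at day 0 and 11.43, 11.28 and 11.51 at day 5 (6.11 ± 0.63, adjusted p = 1.58e-07). The rest of the 10 largest rises were Plac1 (5.98), a gene of trophoblast, Hoxb1 (5.62), Stard8 (5.49), the growth factor gene Fgf3 (5.42), and Msx2 (5.29) and Msx1 (5.27), homeobox targets of BMP signalling.

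The largest fall was that of Tm4sf1, a membrane protein of spreading and migrating cells, at 12.76, 12.44 and 13.03 at day 0 and 5.18, 5.62 and 5.29 at day 5 (-7.38 ± 0.39, adjusted p = 9.19e-12). Anxa1, a phospholipid-binding protein that restrains inflammation, was at 14.68, 14.24 and 14.89 at day 0 and 7.59, 8.5 and 7.14 at day 5 (-6.86 ± 0.36, adjusted p = 9.19e-12). The prostaglandin synthase gene Ptgs2 was at 12.27, 11.41 and 12.26 at day 0 and 4.98, 5.03 and 5.38 at day 5 (-6.85 ± 0.29, adjusted p = 3.04e-13). The 10 largest rises and falls were drawn only from called genes without overlap between the days. Their lack of overlap follows from that choice. The other falls of the 10 largest were Lox (-6.77), which cross-links collagen, Emp1 (-6.62), Cavin2 (-6.61) and Cav1 (-6.41) of caveolae, S100a4 (-6.43), a calcium-binding protein of fibroblasts, the growth factor gene Ereg (-6.36) and the smooth muscle actin gene Actg2 (-6.34). Lox and S100a4 are themselves among the feeder fibroblast markers given above, and the part of feeder RNA in these falls was not tested.

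**Figure D1:**
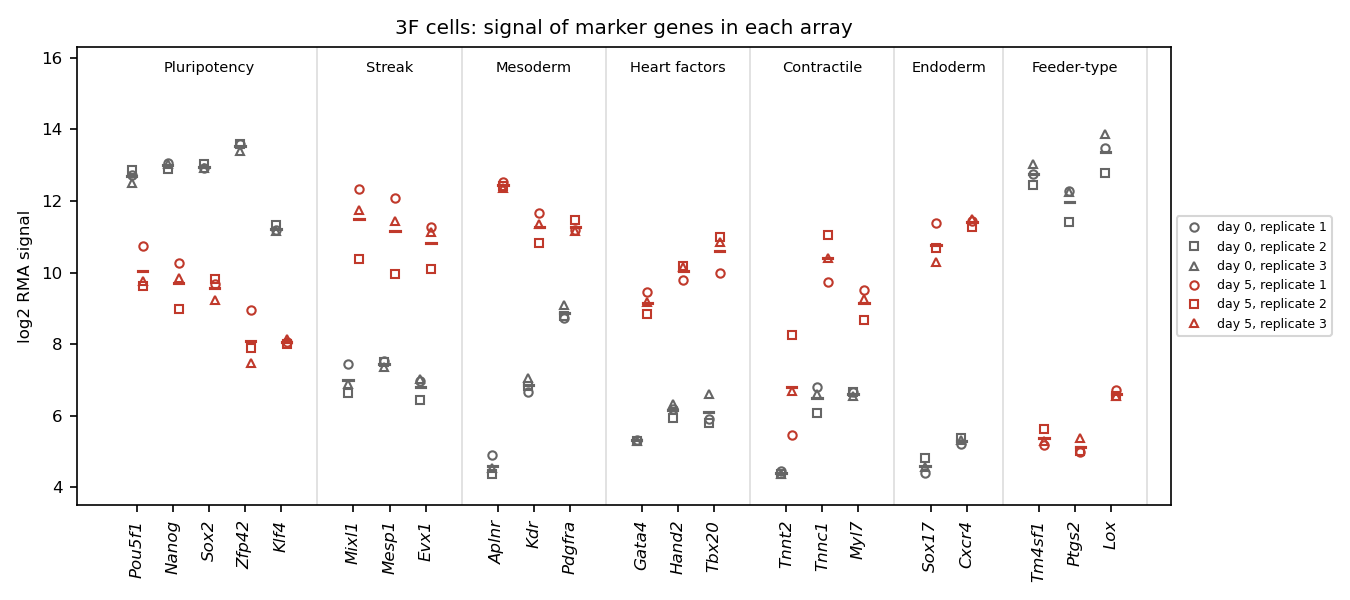
Signal of marker genes in each 3F array, on the log2 RMA scale, with day 0 in grey, day 5 in red, a marker shape per replicate and a bar at the group mean. The pluripotency and feeder-type genes sit lower at day 5 and the mesoderm and heart factor genes higher, while the 3 day 5 arrays of Tnnt2 spread from 5.47 to 8.26.

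Most of the pluripotency network fell, though not all of it to the same extent. Of 15 general pluripotency genes 13 fell and 0 rose, with a median change of -3.31. Pou5f1, which encodes Oct4, was at 12.73, 12.86 and 12.5 at day 0 and 10.74, 9.63 and 9.75 at day 5. Day 5 replicate 1 kept the highest level, and the groups did not overlap (-2.65 ± 0.52, adjusted p = 0.000376). Nanog was at 13.06, 12.91 and 13.04 at day 0 and 10.26, 8.99 and 9.83 at day 5 (-3.31 ± 0.48, adjusted p = 1.37e-05). Sox2, the partner of Oct4 on DNA, was at 12.91, 13.04 and 12.92 at day 0 and 9.69, 9.81 and 9.24 at day 5 (-3.38 ± 0.44, adjusted p = 3.26e-06). In both genes the day 5 arrays lay below every day 0 array. Larger falls were those of Dppa2 (-5.47 ± 0.39, adjusted p = 9.16e-10), a chromatin factor of pluripotent cells, Gdf3 (-4.83), a TGF-beta family ligand, Eras (-4.25), a Ras protein of embryonic stem cells, Dppa4 (-4.13) and Fgf4 (-3.97). The 2 members that did not pass were Sall4 at 0.11 and the RNA-binding protein gene Lin28a at 0.08. Tdgf1, the Nodal co-receptor, fell by less (-2.35), a call that ended without day 5 replicate 2 (-1.83, adjusted p = 0.0615).

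Genes of the naive state, in which cells depend on LIF, gave 11 falls and 2 rises among 15 members (median -2.71). Zfp42, also called Rex1, was at 13.58, 13.6 and 13.39 at day 0 and 8.95, 7.88 and 7.47 at day 5 (-5.43 ± 0.47, adjusted p = 1.36e-08), with no overlap. Nr0b1, an orphan nuclear receptor that binds Oct4, made the largest fall of the list (-6.17 ± 0.52, adjusted p = 9.53e-09), before Fbxo15 (-4.28) and Tcl1 (-4.0). Klf4, a reprogramming factor in many protocols, was at 11.19, 11.32 and 11.16 at day 0 and 8.05, 8.0 and 8.15 at day 5 (-3.16 ± 0.31, adjusted p = 7.85e-08), its day 0 arrays all higher. Esrrb changed less, at 8.03, 8.86 and 8.25 at day 0 and 7.58, 7.63 and 7.33 at day 5. Its arrays did not overlap, but the change of -0.87 ± 0.22, adjusted p = 0.00397 was under 2-fold. It passed with the mean of its probe sets (-1.24, adjusted p = 7.96e-05) and without day 0 replicate 1 (-1.04, adjusted p = 0.00238). The rises were Tbx3 (2.95 ± 0.48, adjusted p = 4.78e-05), a T-box factor that also acts in mesoderm and endoderm, and the LIF receptor gene Lifr (1.02), whose call ended without day 0 replicate 2 (0.89, adjusted p = 0.0495) and with the mean of its probe sets (0.58).

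Of the genes of the primed state, the later form of pluripotency found in the epiblast, 4 of 9 fell and 0 rose (median -1.0). Fgf5, the usual marker of this state, was at 8.6, 8.45 and 8.66 at day 0 and 9.3, 6.59 and 6.82 at day 5. Replicate 1 lay above all day 0 arrays and the other replicates below them, so the change of -1.0 ± 0.67, adjusted p = 0.303 did not pass. Without day 5 replicate 1 it was -1.87 (adjusted p = 0.0368), and with array weights -1.3 (adjusted p = 0.0192). Zic5 fell by 2.62 and the POU factor gene Pou3f1 by 2.51. Otx2 was at -2.41 and Zic2 at -1.25, calls that ended without day 5 replicate 2 (-1.94, adjusted p = 0.0707, and -1.05, 0.0587) and, for Otx2, without replicate 3 (-2.13, 0.052). Of 16 germ line and meiosis genes, several of which mouse pluripotent cells express, 9 fell and 0 rose, with Morc1 at -5.81 ± 0.58, adjusted p = 8.1e-08, Mael at -4.02, the RNA helicase gene Ddx4 at -3.99 and Sycp3 at -3.62. The DNA methylation list gave 3 falls among 8 members. Dnmt3l, the cofactor of new DNA methylation, was at 12.37, 12.18 and 11.96 at day 0 and 7.86, 7.13 and 6.38 at day 5 (-5.05 ± 0.43, adjusted p = 8.03e-09), so its day 5 signal was lower in every array. Tet1, an enzyme that oxidises methylcytosine, fell by 2.37, and Tet2 was at -1.06, a call that ended when any of 3 of the 6 arrays was left out (adjusted p 0.0508 to 0.0721). The methyltransferase gene Dnmt3b was at -0.8 ± 0.33, adjusted p = 0.0717 and did not pass, but fell by 1.35 (adjusted p = 0.00505) with the mean of its probe sets.

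Primitive streak genes rose in the same arrays. Of 12 members 7 rose and 1 fell, with a median of 1.57. Mixl1, a homeobox gene of the streak, was at 7.43, 6.64 and 6.88 at day 0 and 12.34, 10.39 and 11.75 at day 5 (4.51 ± 0.86, adjusted p = 0.000297). Mesp1, the factor that opens the heart mesoderm programme, was at 7.51, 7.49 and 7.35 at day 0 and 12.08, 9.96 and 11.44 at day 5 (3.71 ± 0.71, adjusted p = 0.000336). Replicate 2 was the lowest day 5 array in both and still lay above every day 0 array. Evx1, which marks the posterior streak, rose by 4.02, Lhx1 by 2.07 and the ligand gene Wnt3, needed to form the streak, by 1.91 ± 0.41, adjusted p = 0.000896. Eomes, a T-box factor of the streak, was at 10.49, 10.21 and 10.73 at day 0 and 12.79, 10.93 and 11.86 at day 5. Replicate 2 again gave the lowest of the day 5 arrays, and the change of 1.38 ± 0.6, adjusted p = 0.0888 did not pass. It passed without that replicate (1.84, adjusted p = 0.0413), with array weights (adjusted p = 0.00467), with only the compared arrays (0.0204) and with the mean of its probe sets (0.0466). Fgf8 was at 1.76 ± 0.55, adjusted p = 0.0182, a call that ended without day 0 replicate 2 (1.51, adjusted p = 0.0835) or day 5 replicate 1 (1.52, 0.0796) or 3 (1.65, 0.0613). Gsc, at 1.37, lost its call when any of 5 of the 6 arrays was left out (adjusted p 0.0654 to 0.165). Fgf17 fell by 2.2.

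Further along the path, 7 of 12 genes of lateral and vascular mesoderm rose and 2 fell (median 1.96). Kdr was at 6.67, 6.83 and 7.04 at day 0 and 11.66, 10.82 and 11.35 at day 5 (4.43 ± 0.47, adjusted p = 2.44e-07). Pdgfra, the receptor that with Kdr marks heart mesoderm, was at 8.74, 8.79 and 9.11 at day 0 and 11.19, 11.48 and 11.16 at day 5 (2.4 ± 0.71, adjusted p = 0.0128). Neither gene had overlapping groups. Lmo2 (2.71), Tal1 (2.05) and Etv2 (1.87), factors of blood and vessel precursors, rose too, with Rasgrp3 (2.57). Foxc2 (-2.13) and Apela (-1.93), whose product is a ligand of the apelin receptor, fell.

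Genes of the Nodal and BMP pathways moved in both directions. In the Nodal and TGF-beta list, 6 of 16 members rose and 7 fell. Nodal itself was at 12.41, 12.39 and 12.06 at day 0 and 10.4, 9.46 and 9.54 at day 5 (-2.49 ± 0.45, adjusted p = 0.000178), and its feedback inhibitors Lefty1 (-4.09 ± 0.37, adjusted p = 2.42e-08) and Lefty2 (-3.45 ± 0.45, adjusted p = 4.02e-06) fell with it. The activin subunit gene Inhba fell by 5.75. The rises were those of Foxh1 (2.34), the DNA-binding partner of Smad2, the receptor genes Acvr2b (1.65), Acvr1b (1.6) and Acvr2a (1.01), the ligand gene Tgfb1 (1.05) and the transducer gene Smad3 (1.02). With the mean of the probe sets 1 of these 6 passed, Foxh1, with Acvr2b at 0.76 and Acvr1b at 0.71. Leaving out single arrays ended the calls of Acvr2a and Smad3 (any of 3 of the 6 arrays) and of Tgfb1 (either of 2). BMP genes moved mostly upward: 11 of 19 rose and 1 fell, with a median of 1.2. The ligand gene Bmp4 was at 9.66, 9.69 and 9.56 at day 0 and 11.92, 12.19 and 12.38 at day 5, with every day 5 array above every day 0 array (2.52 ± 0.43, adjusted p = 8.96e-05). Bmp5 (4.67 ± 0.49, adjusted p = 1.67e-07), Bmp2 (4.46) and Bmp7 (1.95) also rose. The inhibitory Smad6, a feedback target, was at 4.7 ± 0.56, adjusted p = 1.09e-06, the pseudoreceptor gene Bambi at 3.21 and the target Id1 at 1.2. The antagonist gene Grem1, which fibroblasts express, fell by 2.67, while Nog (0.08) and Chrd (0.21) did not pass.

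Of 29 Wnt genes 11 rose and 1 fell (median 0.82). Targets that feed back on the pathway stood among the rises: Dkk1, a secreted inhibitor, was at 4.42 ± 0.72, adjusted p = 5.08e-05, Nkd1 at 3.6 and Axin2 at 2.83 ± 0.42, adjusted p = 1.85e-05. The day 5 arrays of Axin2 (11.39, 11.09 and 11.52) lay above those of day 0 (8.63, 8.37 and 8.51). The enhancer gene Rspo3 rose by 3.59, the ligand gene Wnt5b by 2.82 and the receptor gene Fzd4 by 2.4, and Fzd5 fell by 2.61. In the FGF list 6 of 20 rose and 3 fell. The ligand genes parted: Fgf3 was at 5.31, 5.37 and 5.24 at day 0 and 10.38, 10.78 and 11.04 at day 5 (5.42 ± 0.51, adjusted p = 3.87e-08) and Fgf4, the ligand of the inner cell mass and epiblast, at 11.51, 11.92 and 11.0 at day 0 and 8.29, 6.97 and 7.25 at day 5 (-3.97 ± 0.5, adjusted p = 2.18e-06). Neither set of arrays overlapped. The receptor genes Fgfr2 (2.41) and Fgfr1 (1.54) rose, and the target gene Etv5 fell by 2.1. Of 17 Notch genes 5 rose and 2 fell, with the target genes Hey2 (2.76) and Hey1 (2.0) and the receptor gene Notch3 (2.19) higher and the ligand gene Jag1 (-2.18) lower. Of 9 retinoic acid genes only Cyp26a1, the enzyme that breaks down retinoic acid, passed, at 3.19 ± 0.58, adjusted p = 0.000186.

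Hox genes are switched on in order along their clusters, and 4 of 22 Hox and Cdx genes rose while 1 fell. Hoxb1, at the early end of its cluster, was at 4.86, 4.56 and 4.59 at day 0 and 10.17, 9.6 and 11.1 at day 5 (5.62 ± 0.74, adjusted p = 3.96e-06). Its groups did not overlap. Hoxd1 rose by 3.97, Cdx2 by 3.81 and Hoxb2 by 2.78. The late-cluster genes Hoxb9 (-0.26), Hoxa9 (-0.24) and Hoxb7 (-0.03) did not pass, and Hoxc8, which fibroblasts can express, fell by 3.05. Hoxb5 and Hoxb6 did not pass either, though Hoxb6 was at 2.01, and both passed in some alternatives. Without day 5 replicate 1 Hoxb6 was at 2.87 (adjusted p = 0.00973) and Hoxb5 at 1.68 (0.0135). With only the compared arrays, where its change was the same 2.01, Hoxb6 passed (0.0275).

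**Figure D2:**
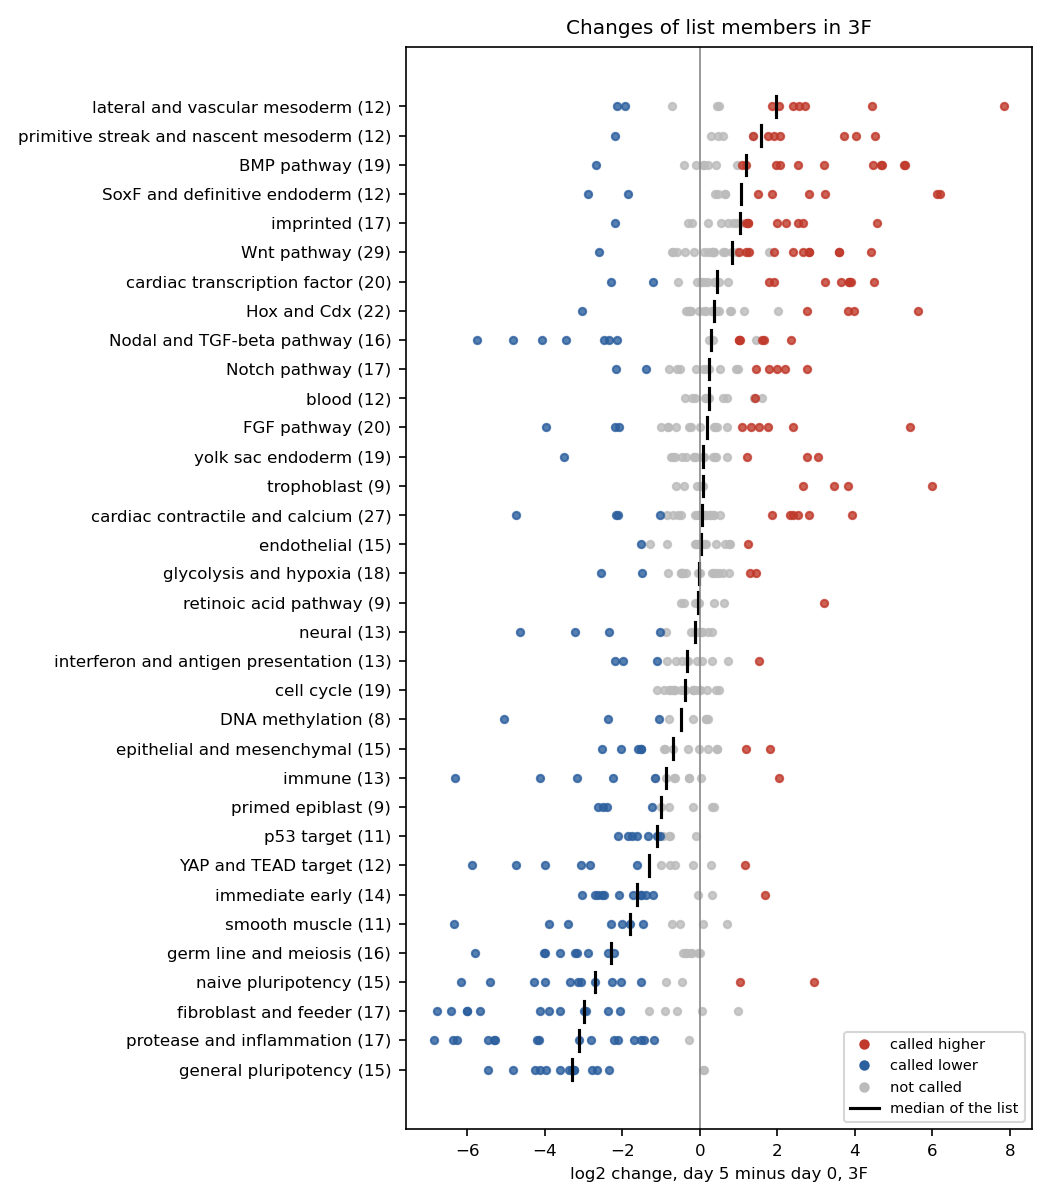
Change of each measured list member in 3F (log2, day 5 minus day 0), with genes that rose in red, genes that fell in blue, genes that did not pass in grey and a black bar at the list's median. Medians run from -3.31 for general pluripotency to 1.96 for lateral and vascular mesoderm.

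Transcription factors of the forming heart were among the genes that rose. Of 20 such factors 8 rose and 2 fell (median 0.44). Gata4 was at 5.33, 5.31 and 5.29 at day 0 and 9.47, 8.84 and 9.17 at day 5 (3.85 ± 0.41, adjusted p = 2.17e-07). Hand2, of the right ventricle and outflow tract, was at 6.19, 5.94 and 6.31 at day 0 and 9.78, 10.19 and 10.14 at day 5 (3.89 ± 0.45, adjusted p = 6.51e-07), and Tbx20 at 5.9, 5.8 and 6.61 at day 0 and 9.98, 11.0 and 10.84 at day 5 (4.5 ± 0.66, adjusted p = 1.5e-05). All 3 had day 5 arrays wholly above the day 0 arrays. Tbx2 (3.84), Hand1 (3.63), Gata6 (3.24), the chromatin remodelling subunit gene Smarcd3 (1.92) and Isl1 (1.77 ± 0.37, adjusted p = 0.000768), which marks the second heart field, rose as well. Nkx2-5 at 0.36 ± 0.25, adjusted p = 0.313 and Tbx5 at 0.02 ± 0.15, adjusted p = 0.939, factors of later heart precursors, did not pass. Tbx18 (-2.3) and Hopx (-1.21) fell.

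Among 27 contractile and calcium-handling genes 6 rose and 4 fell, and the median was 0.06. Tnnc1, cardiac troponin C, was at 6.79, 6.07 and 6.6 at day 0 and 9.74, 11.06 and 10.42 at day 5 (3.92 ± 0.52, adjusted p = 4.24e-06). The atrial myosin light chain gene Myl7 was at 6.65, 6.67 and 6.54 at day 0 and 9.5, 8.67 and 9.25 at day 5 (2.52 ± 0.72, adjusted p = 0.00936), and Tnni1, the troponin I of slow and fetal heart muscle, rose by 2.82 ± 0.45, adjusted p = 4.45e-05. In both the day 5 arrays were higher throughout. Tnnt2, cardiac troponin T, was at 4.44, 4.36 and 4.38 at day 0 and 5.47, 8.26 and 6.68 at day 5. Replicate 2 was the highest and replicate 1 the lowest of day 5, and the change of 2.41 ± 0.65, adjusted p = 0.00685 did not pass without replicate 2 (1.68, adjusted p = 0.0704). The rise of cardiac actin, Actc1 (2.31), ended when any of 3 of the 6 arrays was left out (adjusted p 0.0621 to 0.0852), and Myl4 rose by 1.87. The titin gene Ttn (-0.57), the ryanodine receptor gene Ryr2 (0.52) and Actn2 (0.15) did not pass. Ankrd1, a stretch-responsive gene that is also a target of YAP, fell by 4.75. The other falls were Ldb3 (-2.12, but -0.87 with the mean of its probe sets), Myh6 (-2.15, adjusted p up to 0.0864 without any of 5 of the 6 arrays) and Nppb (-1.02, up to 0.0725 without any of 4), and the falls numbered 3 or 2 when any array was left out (2 without day 0 replicate 1 or 3 or day 5 replicate 2). Smooth muscle genes, which activated fibroblasts share, gave 7 falls and 0 rises among 11, with Actg2 above, Acta2 at -3.89, Mylk at -3.41 and Tagln at -2.29.

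Genes of endoderm and of the tissues outside the embryo changed in part. In the list of SoxF factors and definitive endoderm 6 of 12 rose and 2 fell (median 1.07). Besides Sox17, Cxcr4 and Gata6 these were the pioneer factor genes Foxa1 (2.81) and Foxa2, and Sox7 (1.51, 1.29 and adjusted p = 0.0515 without day 5 replicate 3). Foxa2 was at 5.86, 5.72 and 5.38 at day 0 and 8.28, 7.51 and 6.73 at day 5 (1.86 ± 0.39, adjusted p = 0.00075). Epcam, an adhesion molecule of epithelial and pluripotent cells, fell by 1.86 and Trh by 2.9. Of 19 yolk sac endoderm genes 3 rose and 1 fell. Pth1r, of parietal endoderm, was at 3.04 ± 0.31, adjusted p = 1.39e-07, and the transport protein gene Ttr at 4.53, 4.66 and 5.04 at day 0 and 7.09, 9.01 and 6.42 at day 5 (2.76 ± 0.7, adjusted p = 0.00387). The alpha-fetoprotein gene Afp did not pass (0.33 ± 0.38, adjusted p = 0.595). Rbp4 (1.22) lost its call when any single array was left out (adjusted p 0.0529 to 0.205), and Thbd fell by 3.5. Of 9 trophoblast genes 4 rose: Plac1, Cdx2, Krt18 (3.46) and Krt8 (2.65), the last pair being keratins of all simple epithelia. Of the 4 trophoblast markers Cdx2 rose, while Elf5 (0.03), Tfap2c (-0.63) and Ascl2 (-0.42) did not pass. The mean level of these 4 was 7.68 to 7.75 at day 0 and 8.37 to 8.44 at day 5. Krt8 at day 0 was uneven, at 12.84, 10.86 and 10.76, with replicate 1 nearest to the day 5 arrays (13.94, 14.31 and 14.16).

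Genes of later cell types were also measured, and the share that passed among all genes was 12.4%. Of 15 endothelial genes 1 rose (Ramp2, 1.25) and 1 fell (Cd34, -1.53), with Cdh5 at 0.42 and Tek at -1.29. Tek did pass without day 5 replicate 2 (-1.84, adjusted p = 0.0295) and with array weights (adjusted p = 0.00324), among other fits. Of 12 blood genes only Gata2 passed (1.43 ± 0.29, adjusted p = 0.000651). The embryonic globin gene Hbb-y was at 4.03, 3.95 and 3.86 at day 0 and 4.56, 7.24 and 4.2 at day 5. All day 5 arrays lay above those of day 0, though only replicate 2 by much, and the change of 1.39 ± 0.89, adjusted p = 0.28 did not pass. Neural genes gave 4 falls and 0 rises among 13. The neurofilament gene Nefl was at 12.82, 12.77 and 13.17 at day 0 and 9.16, 7.7 and 7.97 at day 5 (-4.64 ± 0.45, adjusted p = 5.49e-08). Map2 fell by 3.23 and Pax6 by 2.35 (-0.49 with the mean of its probe sets), while Sox1 (0.06) and Nes (-0.22) did not pass. Ncam1 (-1.03) lost its call when any single array was left out (adjusted p 0.0581 to 0.157). Of 15 genes that set epithelial against mesenchymal cells 2 rose and 5 fell. N-cadherin, Cdh2, rose by 1.81 ± 0.47, adjusted p = 0.0052 and Snai1, a repressor of E-cadherin, by 1.19 ± 0.28, adjusted p = 0.00214. E-cadherin, Cdh1, was at 12.2, 12.11 and 12.13 at day 0 and 10.63, 10.06 and 9.68 at day 5 (-2.02 ± 0.37, adjusted p = 0.000186), lower in every day 5 array. Cldn6 (-1.59), Cldn4 (-1.52) and Esrp1 (-1.53, adjusted p = 0.0651 without day 5 replicate 2) also fell, and so did Grhl2 (-2.54, but -0.80 with the mean of its probe sets).

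Several imprinted genes, which are expressed from 1 parental copy and often regulate fetal growth, rose. Of 17 measured 8 rose and 1 fell, with a median of 1.03. The growth factor gene Igf2 was at 8.96, 8.61 and 8.85 at day 0 and 12.78, 13.91 and 13.46 at day 5 (4.58 ± 0.58, adjusted p = 2.23e-06), its day 5 arrays all higher. Phlda2 (2.65), the cell cycle inhibitor gene Cdkn1c (2.52) and Mest (2.23) followed. Igf2r (1.2) lost its call when any of 4 of the 6 arrays was left out (adjusted p 0.0555 to 0.208, with 0.82 without day 5 replicate 2) and with the mean of its probe sets (0.63, adjusted p = 0.303). Plagl1 fell by 2.19, but was at -0.74 with the mean of its probe sets, and Dlk1 (0.87, but 1.07 and adjusted p = 0.0105 with array weights) and Meg3 (-0.32) did not pass.

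Most measured genes of fibroblast type fell. Of 17 fibroblast and feeder genes 12 fell and 0 rose (median -2.98). Col1a2, a chain of type I collagen, was at 12.6, 12.61 and 13.59 at day 0 and 6.77, 7.54 and 6.45 at day 5 (-6.01 ± 0.55, adjusted p = 2.54e-08). Col3a1 was at 11.11, 11.42 and 12.2 at day 0 and 5.41, 6.23 and 5.1 at day 5 (-6.0 ± 0.59, adjusted p = 7.27e-08), and both were lower in every day 5 array. Dcn (-4.11) and Postn (-3.88) of the matrix and the surface protein gene Thy1 (-3.6) fell too. Col1a1, by contrast, was at 10.03, 9.8 and 10.72 at day 0 and 8.33, 10.48 and 9.04 at day 5. Day 5 replicate 2 was the highest of its group, and the change of -0.9 ± 0.63, adjusted p = 0.329 did not pass. Pdgfrb was at 0.04 and Twist1, which mesoderm also expresses, at 0.99. By day 11 of 3F the 8 feeder fibroblast markers had a mean level of 11.09 to 11.71, as against 6.90 to 7.84 at day 5, in embryoid bodies kept without LIF. At day 0 the same markers had 9.33 to 10.51 in R1 and 9.56 to 10.58 in 4F, below all 3 arrays of 3F.

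Proteases and inflammatory signals fell at 16 of 17 members and rose at 0 (median -3.11). Besides Ptgs2 and Ereg these included the protease inhibitor gene Serpinb2 (-6.27 ± 0.43, adjusted p = 5.37e-10), the collagenase gene Mmp13 (-5.48), Timp1 (-5.31) and the cytokine gene Il6 (-5.28). Of 12 genes that YAP and TEAD factors switch on, 6 fell and 1 rose, with Thbs1 (-5.88), Ccn2 (-4.0) and the receptor tyrosine kinase gene Axl (-3.07) lower. Immediate early genes, which growth factors and handling induce within minutes, fell at 11 of 14 members, among them Fos (-3.04 ± 0.33, adjusted p = 2.6e-07), Dusp1 (-2.7), Egr2 (-2.63) and Egr1 (-2.53). Myc rose, at 9.51, 9.37 and 9.25 at day 0 and 10.95, 11.09 and 11.14 at day 5 (1.68 ± 0.19, adjusted p = 4.03e-07), with all day 5 arrays higher. Of 13 immune genes 5 fell, led by the lysozyme genes Lyz1 (-6.32) and Lyz2 (-3.17), near-identical copies whose probes may share signal, and the protease gene Ctss (-4.14). The 4 leukocyte markers had a mean level of 6.69 to 6.96 at day 0 and 5.9 to 5.93 at day 5. Laptm5 rose by 2.04 on its brightest probe set, but its probe sets ran from -5.48 to 2.04 and give it no direction. How far feeder RNA bears on the falls in these 4 lists and in the smooth muscle list was not tested.

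Replicates of day 5 differed more in some lists than in others. Taking the day 0 mean of each gene as 0, the mean over the general pluripotency list was -2.55, -3.44 and -3.42 in day 5 replicates 1, 2 and 3, and that over the primed epiblast list was -0.49, -1.54 and -1.33. The streak list stood at 2.16, 1.07 and 1.74. Replicate 1 was thus the highest of the 3 in each of these lists. In the Hox and Cdx list the values were 0.38, 1.09 and 1.06, and in the fibroblast and feeder list -3.55, -2.7 and -3.39, where replicate 1 was the lowest. The heart factor list varied little, at 1.15, 1.32 and 1.25. These are differences among single arrays and were not tested.

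**Figure D3:**
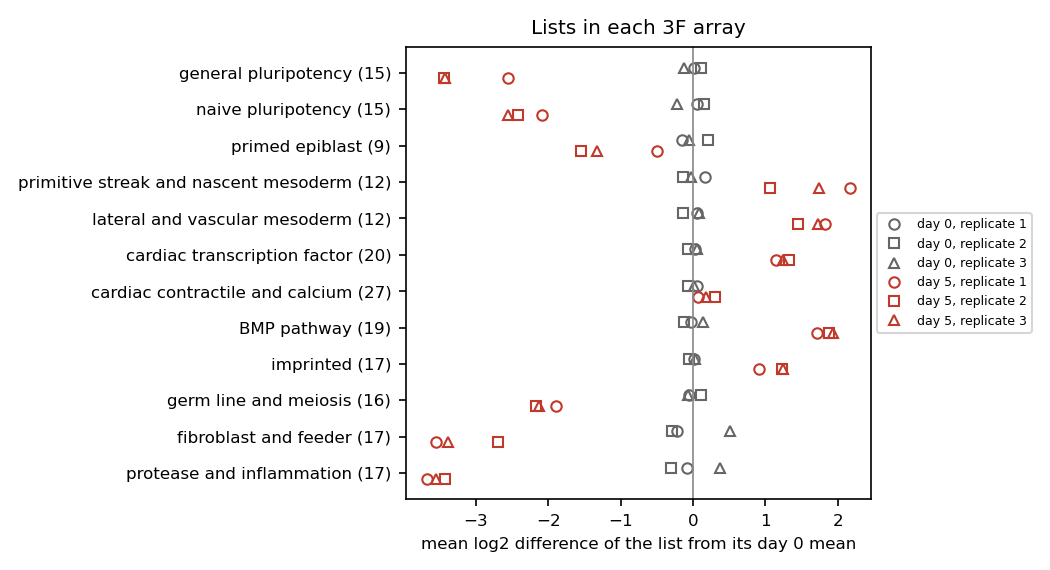
Mean over each list, in each 3F array, of the log2 difference from the day 0 mean of the gene, with day 0 in grey, day 5 in red and a marker shape per replicate. Day 5 replicate 1 lies nearest to day 0 in the general pluripotency and primed epiblast lists and farthest from it in the streak list.

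Compared with R1 over the same days, the 3F change differed at few genes. R1 changed at 2679 genes (14.7%), 6.62% higher and 8.1% lower, and the arrays of both lines are separate. Of the genes that rose in 3F, 729 also rose in R1, which is 79.5% of the 3F rises and 60.5% of the R1 rises. For the falls the number was 867, or 64.4% and 58.8%. The change itself differed between the lines at 68 genes (0.374%), 33 with a higher change in 3F (0.181%) and 35 with a lower (0.192%). Among the 34 lists, 3 members differed, all lower in 3F: Foxc2, Map2 and Crim1. Foxc2 and Crim1 did not pass when any of 9 of the 12 compared arrays was left out (adjusted p up to 0.174 and 0.127), nor Map2 when any of 8 was (up to 0.123). A gene that misses this test is not shown to change alike. The count was 158 without day 0 replicate 1 of R1. It was 29 or 36 without day 0 replicate 3 or 1 of 3F, 39 or 31 without its day 5 replicate 2 or 3, and 32 or 41 without day 0 or day 5 replicate 2 of R1. It was 447 with the 3' minus 5' control signal as a covariate, which was 1.28 to 1.93 in R1 at day 5.

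Dpys, an enzyme of pyrimidine breakdown, showed the largest of these differences (4.67 ± 0.39, adjusted p = 4.03e-07). In 3F it was at 4.67, 4.44 and 4.01 at day 0 and 4.86, 5.06 and 4.56 at day 5, and in R1 at 9.63, 9.7 and 9.18 at day 0 and 5.63, 5.6 and 4.62 at day 5. The gene fell in R1 from a day 0 level that 3F did not have. Aass, an enzyme of lysine breakdown, was likewise at 11.01, 11.62 and 10.82 at day 0 and 6.1, 5.02 and 4.91 at day 5 in R1 and at 6.42, 6.17 and 5.91 at day 0 and 4.35, 4.12 and 4.51 at day 5 in 3F (3.97 ± 0.52, adjusted p = 0.00035), and Fam25c at 11.61, 12.11 and 12.01 at day 0 and 8.68, 8.79 and 8.01 at day 5 in R1 and 9.31, 9.14 and 8.53 at day 0 and 8.76, 8.61 and 8.22 at day 5 in 3F (2.96 ± 0.45, adjusted p = 0.00308). Amph, which encodes amphiphysin, was different in kind. It was at 8.26, 8.63 and 8.23 at day 0 and 10.53, 10.93 and 11.39 at day 5 in 3F and 8.64, 8.37 and 8.58 at day 0 and 8.33, 8.16 and 8.01 at day 5 in R1 (2.94 ± 0.28, adjusted p = 3.78e-06), so that it rose in 3F from a level close to that of R1. Among the lower changes, Tll1, a protease related to Bmp1, was at 8.25, 7.21 and 8.26 at day 0 and 4.04, 4.15 and 3.83 at day 5 in 3F and 6.09, 4.99 and 4.64 at day 0 and 4.21, 3.84 and 3.88 at day 5 in R1 (-2.64 ± 0.41, adjusted p = 0.00344). Ipp (-2.55 ± 0.35, adjusted p = 0.000684), Ccdc141 (-2.46 ± 0.51, adjusted p = 0.0281) and Cdc42ep2 (-2.35 ± 0.39, adjusted p = 0.00423) also fell in 3F from day 0 levels above those of R1. The difference of Ccdc141 did not pass when any of 9 of the 12 compared arrays was left out (adjusted p 0.0539 to 0.109), and it was -0.50 (adjusted p = 0.217) with the mean of its probe sets.

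From the 4F change the 3F change differed more often. 4F changed at 1286 genes (7.07%), 2.25% higher and 4.82% lower. Its rises shared 241 genes with those of 3F (26.3% of the 3F rises and 58.9% of the 4F rises) and its falls 599 (44.5% and 68.3%). The changes differed at 632 genes (3.47%), 274 higher in 3F (1.51%) and 358 lower (1.97%). Leaving out day 5 replicate 3 of 4F, which stood apart from its group, gave 1058, and leaving out replicate 1 or 2 of that group 337 or 341. Without day 5 replicate 2 or 3 of 3F the count was 407 or 379. The 3' minus 5' control signal was 1.55 to 1.71 in 4F at day 5.

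By list, 7 of 19 BMP genes had a higher change in 3F (4 to 9 when single arrays were left out), among them Bmp2, Bmp4, Bmp5 and Smad6. So did 7 of 20 heart transcription factors (6 to 8), with Gata4, Gata6, Hand1, Hand2, Tbx2 and Tbx20, and 5 of 17 imprinted genes (3 to 9). A lower change was found at 7 of 15 epithelial and mesenchymal genes (3 to 8), with Cdh1 among them, 6 of 16 germ line genes (6 to 7), 5 of 9 primed epiblast genes (2 to 6), 5 of 15 naive pluripotency genes (3 to 5) and 4 of 15 general ones (4 to 8). In the streak list 1 gene differed (Fgf17, lower), and up to 4 were higher when single arrays were left out. The upper ends of these ranges, that of the epithelial and mesenchymal list apart, were reached without day 5 replicate 3 of 4F.

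The interferon-induced Usp18 had the largest difference, 6.19 ± 0.74, adjusted p = 5.7e-05. It was at 10.47, 9.99 and 9.64 at day 0 and 4.47, 4.67 and 6.99 at day 5 in 4F against 6.67, 5.95 and 6.29 at day 0 and 8.41, 7.07 and 8.02 at day 5 in 3F, high in 4F at day 0. In 3F itself it rose by 1.53, a call that ended when any of 4 of the 6 arrays was left out (adjusted p 0.0702 to 0.133). Sox17 was at 6.35, 6.69 and 6.98 at day 0 and 6.6, 6.69 and 8.59 at day 5 in 4F (5.56 ± 0.6, adjusted p = 1.34e-05), with replicate 3 above the others at day 5. Cxcr4 was at 4.89, 5.53 and 5.24 at day 0 and 5.1, 5.28 and 8.73 at day 5 in 4F (4.96 ± 0.9, adjusted p = 0.00213). Aplnr, at 4.57, 4.34 and 4.21 at day 0 and 4.57, 4.63 and 11.27 at day 5, was high in 4F replicate 3 of day 5 and low in the other replicates. Its difference of 5.39 ± 1.41, adjusted p = 0.0304 did not pass when any of the 12 compared arrays but that replicate was left out (adjusted p 0.0537 to 0.120), and without that replicate its adjusted p was 6.83e-09. Fgf5 was at 5.67, 5.91 and 6.37 at day 0 and 10.43, 10.56 and 9.09 at day 5 in 4F, where it rose, and its difference was -5.05 ± 0.95, adjusted p = 0.00308. Nefl (-4.41 ± 0.63, adjusted p = 0.000376), the kinase gene Pim2 (-4.34 ± 0.68, adjusted p = 0.000669) and Mael (-4.26 ± 0.46, adjusted p = 1.34e-05) fell in 3F and were no more than slightly lower at day 5 than at day 0 in replicates 1 and 2 of 4F.

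**Figure D4:**
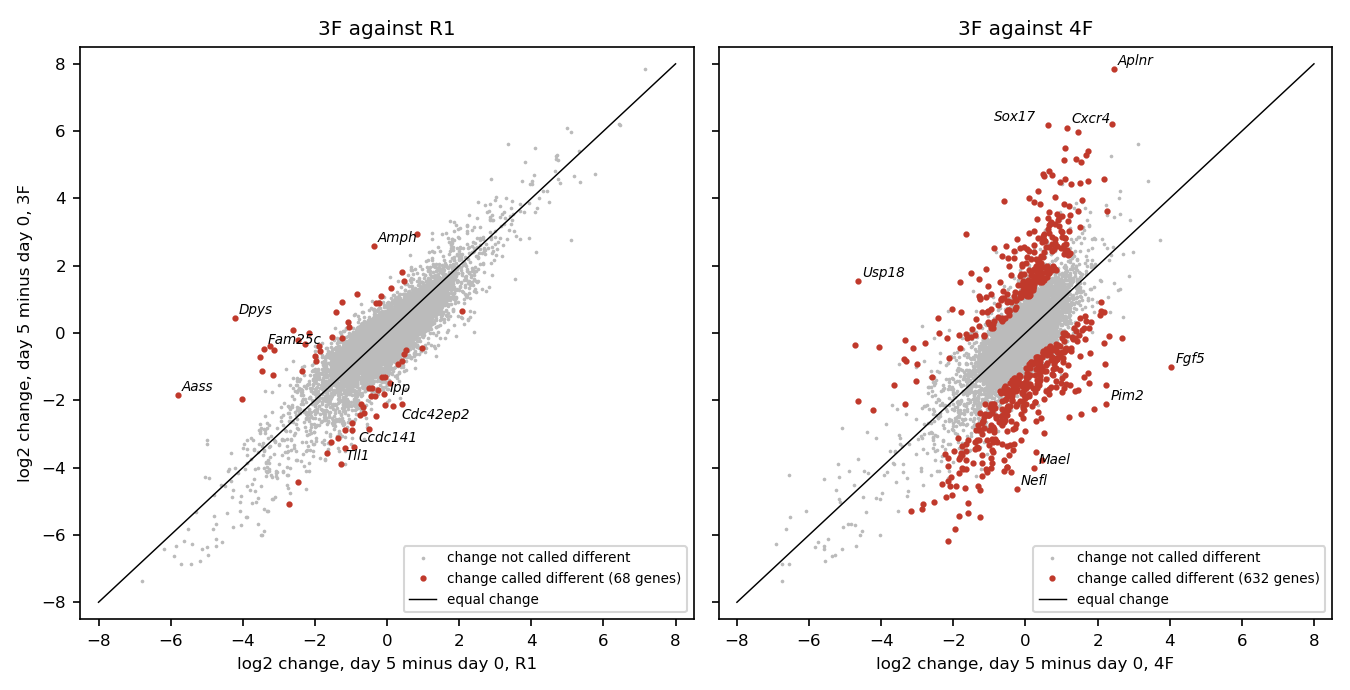
Change of each gene in 3F (vertical axis, log2, day 5 minus day 0) against its change in R1 (left) and in 4F (right), with genes whose change differed between the lines in red and a line where both changes are equal. The 68 genes that differ from R1 lie off the line on the left, and the 632 that differ from 4F are spread more widely on the right.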

How the data were processed

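RNA of 3 3F arrays at day 0 and 3 at day 5 was compared, with R1 and 4F over the same days. Per the submitters' processing notes, RMA (version not given) made the deposited log2 values. The table held 45101 probe sets for 27 arrays, of which 34945 had 1 gene symbol, 932 several, 9160 none and 64 were controls. 34741 were matched to the gene reference by identifier and 0 symbols changed. For each of 18193 genes the probe set of highest mean signal across the 27 arrays was taken.

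limma 3.58.1 (R 4.3.3, empirical Bayes) estimated a mean for each of the 9 groups from the 27 arrays, and p values were adjusted by Benjamini-Hochberg over all genes. Calls needed an adjusted p under 0.05 and 2-fold. The p values and standard errors rest on the spread of each gene pooled over the replicates of all 9 groups, R1 and 4F included. Arrays have no read depth, so that their number limits the precision. On simulated data of 18193 genes, 38, 40, 44 and 49 of 50 genes changed by 1.25, 1.5, 2 and 3 (log2) were called for day 5 against day 0, with 6 of 17993 unchanged genes. For the difference from the R1 change the numbers were 29, 29, 40 and 46 of 50, with 9. The simulated noise of a gene took in its observed day 5 change in 3F and was equal in all groups. These counts therefore do not give the recovery in the real data.

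The arrays and the 34 gene lists (534 genes, of which 26 are not analysed here) were chosen with earlier results of these data known. Named by rule were the 10 largest rises and falls, among called genes without overlap between the days. So were up to 4 members of each list, the 4 largest differences in each direction and a set of well-known genes. Provisional names were passed over. List members beyond these were chosen after their values were seen. Promoters came from RefSeq (14452 genes matched). Alternatives were other scalings, filters, probe set rules, variance models, thresholds, a replicate block and each array left out. Python 3.11.15 with pandas 2.3.3 and numpy 2.4.6 made the tables, and matplotlib 3.10.9 the figures.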

Additional observations from a re-analysis of the deposited data

Results flagged for a closer look

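These results stand here because the change over 5 days differed between 3F and another line by a test of the difference itself (limma, adjusted over all genes). Values are the 3F change minus the change of the other line, on the log2 scale. Against R1 there were 68 such genes. Dpys (4.67), Aass (3.97) and Fam25c (2.96) had the larger fall in R1, and Amph (2.94) rose in 3F. Tll1 (-2.64), Ipp (-2.55), Ccdc141 (-2.46) and Cdc42ep2 (-2.35) had the larger fall in 3F. In 7 of these 8 genes, Amph being the exception, the lines already differed at day 0, with no overlap between the 3 arrays of 3F and the 3 of R1. Against 4F there were 632 genes. Usp18 (6.19) fell in 4F and rose in 3F, where its call ended when any of 4 of the 6 arrays was left out. Sox17 (5.56), Aplnr (5.39) and Cxcr4 (4.96) had the larger rise in 3F. Fgf5 (-5.05) rose in 4F, while Nefl (-4.41), Pim2 (-4.34) and Mael (-4.26) fell in 3F.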

How the results depend on the processing

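The counts over all genes for 3F at day 5 against day 0 were within 1.5 times of those reported in the alternatives run, apart from these. At 4-fold 678 genes passed, 214 higher and 464 lower, and with the probe sets of a gene averaged 603 were higher. Leaving out single arrays gave 2176 to 2308 genes, 873 to 948 higher and 1277 to 1371 lower. Among the lists, naive genes that rose numbered 1 with array weights, with the mean of probe sets and at 4-fold, and 1 to 2 without single arrays. Streak genes that rose numbered 4 at 4-fold, heart factors that fell 1 at 4-fold, contractile genes that fell 2 at an adjusted p under 0.01 (2 to 3 without single arrays), and 1 fibroblast gene (Twist1) rose with array weights or median centring (0 to 1 without single arrays). For 56 other list counts, 1016 values in the alternatives were within 1.5 times of those reported and 48 were not, 21 of them at 4-fold. With the mean of probe sets 1 Nodal and TGF-beta gene rose instead of 6, and 2 neural genes fell instead of 4. Without day 5 replicate 2 the primed genes that fell numbered 2 instead of 4, and without day 5 replicate 1 the FGF genes that fell 5 instead of 3. Endothelial falls numbered 2 instead of 1 in 5 alternatives and 0 at 4-fold. Of 158 named genes 0 reversed in these alternatives, and over all of them a call was lost 71 times and gained 10 times.

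The difference from the R1 change depended most on the fit. Instead of 68 genes (33 higher, 35 lower) it gave 447 (113 and 334) with the RNA quality index as a covariate, 808 (219 and 589) with array weights, 172 (66 and 106) with only the compared arrays, 25 (16 and 9) at 4-fold and 25 (19 and 6) at an adjusted p under 0.01. Median centring gave 56 higher, the mean of probe sets 18 lower, and single arrays left out 29 to 158 (22 to 46 higher, 7 to 112 lower). The difference from the 4F change gave 1482 genes (703 and 779) with array weights, 964 with only the compared arrays (570 lower), 227 (106 and 121) at 4-fold, 281 (127 and 154) at an adjusted p under 0.01 and 337 to 1058 without single arrays (147 to 523 higher, 186 to 535 lower). The cause was not tested.

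The labels state no pairing by replicate number. The residuals of same-numbered 3F arrays correlated at 0.014, -0.13 and 0.068, and those of differently numbered arrays at -0.159 to 0.158. So few arrays cannot exclude a pairing. With a replicate block 2273 genes passed for day 5 against day 0 (2312 with only the compared arrays), 50 for the difference from R1 (51), of which 21 were lower, and 685 for that from 4F (834). With the block the difference of Ccdc141 did not pass (adjusted p = 0.0662), nor that of Tll1 with only the compared arrays (0.053), where Eomes passed (0.00926). The number of arrays limits the precision of every value.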

Other observations

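Some gene groups moved little or in a way not described above. Of 19 cell cycle genes 0 passed in limma, and the list's median was -0.38. Without overlap between the days, 12 of them were lower and 2 higher at day 5, beside 30.6% and 26.1% of all genes. Ccnd2 was at -1.1 and Pcna at -0.8. Ccnd2 passed in some alternatives (adjusted p = 0.041 with dim genes left out), and with the mean of probe sets 3 genes of the list fell. Of 11 genes in the pathway of p53, the tumour suppressor that arrests damaged cells, 7 fell and 0 rose (median -1.1). Perp was at -2.13, Ccng1 at -1.84, Cdkn2a, which is not itself a p53 target, at -1.75 and Mdm2 at -1.62. Cdkn1a, the inhibitor p21, was at 12.56, 12.24 and 12.65 at day 0 and 11.27, 11.3 and 11.58 at day 5, a change of -1.1 ± 0.31, adjusted p = 0.00814, which was under 2-fold after cyclic loess (-0.80) and quantile normalization (-0.76). Fibroblasts in culture express several of these genes, and the part of feeder RNA was not tested. In the glycolysis and hypoxia list 2 of 18 rose (Egln3, 1.45, and Slc16a3, 1.3) and 2 fell (Adm, -2.54, and Pdk1, -1.49, but -0.77 with the mean of its probe sets), around a median of -0.01. Of 13 interferon and antigen presentation genes 3 fell, with B2m, the light chain of class I molecules, at 12.27, 11.77 and 12.49 at day 0 and 9.94, 10.02 and 10.03 at day 5 (-2.18 ± 0.31, adjusted p = 1.31e-05), Ifitm3 at -1.98 and Bst2 at -1.11 (-0.98 without day 5 replicate 3).

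Promoters of the genes that rose were richer in CpG pairs. The median GC content was 62.8% for 712 promoters of risen genes, 58.8% for 1046 of fallen genes and 57.6% for all 14452, and the median CpG ratio was 0.704, 0.619 and 0.632. A GC box was present in 67.7%, 55.4% and 49.9%, a TATA box in 5.76%, 9.94% and 9.02%, and an AP-1 motif (TGANTCA) in 2.67%, 6.12% and 5.58%. The share in risen genes was also below that of all promoters for the GATA motif (AGATAA, 5.2% against 7.47%) and T-box motif (8.43% against 11%). So it was for the SOX and TCF motif (ACAAAG, 10.5% against 13.8%), ETS motif (CGGAAG, 16% against 20%) and TEAD motif (10.7% against 11.4%). It was above for the CCAAT box (36.2% against 35.7%) and octamer (1.83% against 1.38%). These shares are descriptions of 250 bases before the start and were not tested.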
